A study of Homo sapiens with 18 samples.

Results

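Androgen-synthesising and androgen-interconverting enzymes were followed by exon-capture RNA sequencing in LNCaP, a human prostate cancer cell line that grows in response to androgen. The set was chosen by gene symbol and holds 9 genes: the steroid 5-alpha reductases SRD5A1 and SRD5A3, the 17-beta-hydroxysteroid dehydrogenases HSD17B4, HSD17B8, HSD17B10, HSD17B11, HSD17B12 and HSD17B14, and the aldo-keto reductase AKR1C3. These are 9 of the 58037 genes listed, and all 9 were among the 15185 genes with enough reads in some of the libraries to be tested. The culture medium contained 9% serum from which charcoal had removed steroids, and every group was transfected with a pool of siRNAs, so there was no untransfected group and no single siRNA was tested. The 6 groups, of 3 biological replicates each and 18 libraries in all, were E2F2 siRNA with R1881, E2F2 siRNA with vehicle, E2F1 siRNA with R1881, E2F1 siRNA with vehicle, non-targeting control siRNA with R1881 and non-targeting control siRNA with vehicle. R1881 is a synthetic androgen that was given at 0.1 nM, the vehicle was ethanol, and RNA was taken 48 h after treatment. The time between transfection and treatment is given as 42 h in the series text and as 48 h in the sample labels. All cells came from 1 line, so the p-values describe the spread between cultures of that line.

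Androgens reach their receptor through a chain of steroid conversions inside the prostate cell. AKR1C3 reduces the weak androgen androstenedione to testosterone, the 5-alpha reductases turn testosterone and its precursors into 5-alpha-reduced steroids such as dihydrotestosterone, and oxidative 17-beta-hydroxysteroid dehydrogenases convert active androgens and oestrogens back to weaker keto-steroids. Several enzymes of the dehydrogenase family are better known for other work, such as the breakdown or elongation of fatty acids, and SRD5A3 is known for its part in making dolichol, the lipid on which N-linked sugar chains are built.

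Library totals were 10930204 to 14819879 counts. The androgen-induced gene KLK3, which encodes prostate-specific antigen, was higher with R1881 than with vehicle in control siRNA cells by 3.95 on the log2 scale. Relative to control siRNA, the log2 fold change of E2F1 with its own pool was -2.94 with R1881 and -2.45 with vehicle, and that of E2F2 with its own pool was -4.05 with R1881 and -4.14 with vehicle. The E2F2 pool also lowered E2F1, at -1.62 with R1881 and -1.57 with vehicle. Of 6 markers of luminal prostate epithelium, all 6 were tested, and their summed level was 4229 to 5671 CPM (reads scaled per library to a common total, after TMM scaling) in the 18 libraries. Of 18 markers of other cell types, 9 had 5 or fewer reads over all 18 libraries and CHGA, INSM1 and CD3E had 0. The summed level of those 18 markers was 92.8 to 105 CPM with E2F2 siRNA and R1881, 141 to 159 with E2F2 siRNA and vehicle, 72.0 to 74.0 with E2F1 siRNA and R1881, 78.1 to 94.7 with E2F1 siRNA and vehicle, 68.8 to 81.9 with control siRNA and R1881, and 86.2 to 131 with control siRNA and vehicle. ENO2, COL1A1 and VWF, an endothelial gene, held most of these reads. The other endothelial genes of the list, PECAM1 and CDH5, had 7 and 2 reads over all 18 libraries. Of the other stromal genes, COL1A2 and DCN had 1 and 2 reads, and VIM and ACTA2 had 2287 and 1696. VWF was higher with E2F2 siRNA than with control siRNA in vehicle by 3.04-fold. The part of these markers in the results below was not tested. In cells measured in bulk, fewer cells with a transcript and less of it per cell cannot be told apart.

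The replicate 3 libraries stood apart for several of the 9 enzymes. The log2 level of HSD17B10 in replicate 3 was above the mean of replicates 1 and 2 in 6 of 6 groups, by 0.08 to 0.41. HSD17B12 was below that mean in 6 of 6 groups, by -0.65 to -0.22, SRD5A3 in 6 of 6, by -0.57 to -0.07, and SRD5A1 in 6 of 6, by -0.39 to -0.03. The values without replicate 3 are therefore given beside the calls they change. Leaving it out changed many calls over all genes too: with R1881 and control siRNA, 47.3% of all tested genes were called without replicate 3 and 27% with it.

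R1881 changed the transcript levels of 6 of the 9 enzymes in cells with at least 1 siRNA pool, and 3 enzymes, HSD17B8, HSD17B10 and HSD17B12, were called in none of the 11 comparisons. Of all tested genes, 36.8% were called with R1881 in at least 1 pool and 42.1% in none of the 11 comparisons. In E2F2 siRNA cells 4 of 9 were called between R1881 and vehicle at an adjusted p under 0.05 (edgeR quasi-likelihood test, Benjamini-Hochberg adjustment over all tested genes), where 22.8% of all tested genes were called, 11.8% upward and 11% downward. SRD5A1 and HSD17B4 rose, and SRD5A3 and AKR1C3 fell. In E2F1 siRNA cells 5 of 9 were called against 19.8% of all genes (10.1% upward, 9.75% downward): SRD5A1, HSD17B4 and HSD17B11 rose and HSD17B14 and AKR1C3 fell. In control siRNA cells 4 of 9 were called against 27% of all genes (13.8% upward, 13.2% downward): HSD17B4 and HSD17B11 rose and HSD17B14 and AKR1C3 fell. HSD17B4 and AKR1C3 were called in all 3 pools, HSD17B4 upward and AKR1C3 downward, where 11.8% of all genes were called in all 3. The median log2 fold change of the 9 enzymes was -0.07 in E2F2, 0.0099 in E2F1 and 0.10 in control siRNA cells, beside medians over all tested genes of -0.01, -0.01 and 0.0018 in the same order.

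**Figure D1:**
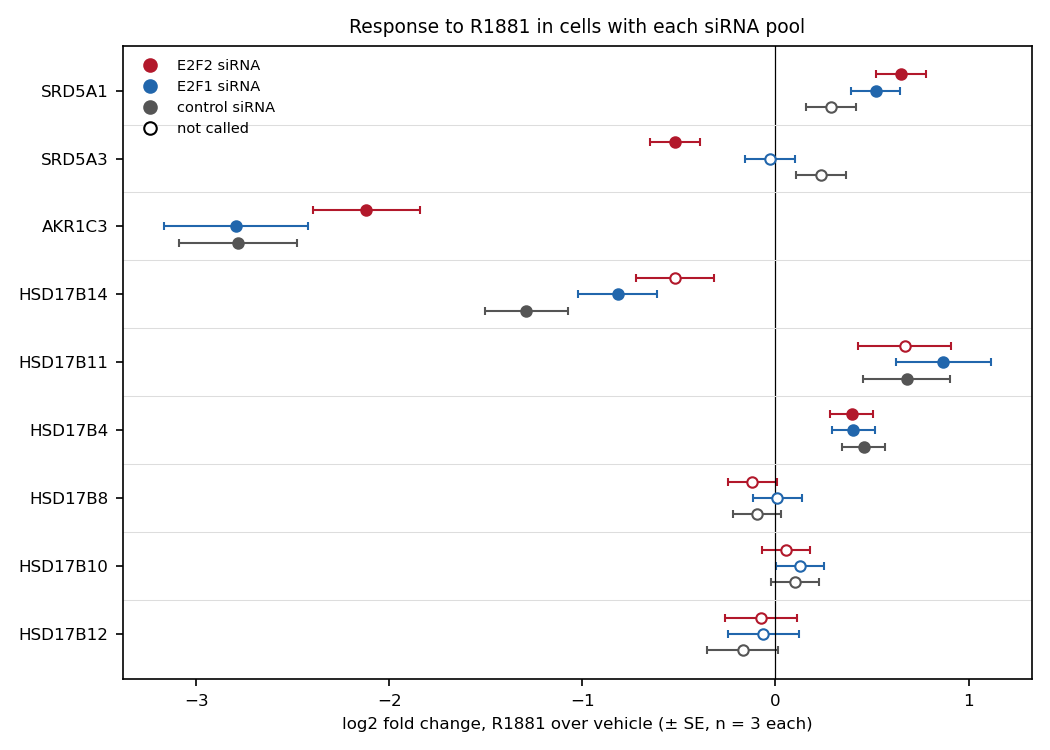
Log2 fold change of each enzyme, R1881 over vehicle, in cells with E2F2, E2F1 and control siRNA. Points are edgeR estimates with SE from 3 libraries a group, filled where called. AKR1C3 lies below -2 in every pool, HSD17B4 between 0.39 and 0.46, and SRD5A3 at -0.52, -0.03 and 0.24 in the E2F2, E2F1 and control pools. The SE bars of AKR1C3 are narrower than its counting error.

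Per kilobase of annotated exon, HSD17B10 had the highest value of the set in every group and AKR1C3 the lowest. HSD17B10 averaged 69.6 ± 3.81 CPM per kb with E2F2 siRNA and R1881, 67.0 ± 3.63 with E2F2 siRNA and vehicle, 83.2 ± 4.61 with E2F1 siRNA and R1881, 76.2 ± 11.4 with E2F1 siRNA and vehicle, 78.4 ± 6.81 with control siRNA and R1881, and 73.1 ± 12.6 with control siRNA and vehicle (SD, n = 3). HSD17B4 came second in every group, at 22.5 to 36.8 CPM per kb. The third place held HSD17B8 in the E2F1 and control siRNA groups and SRD5A3 in both E2F2 siRNA groups. AKR1C3 averaged 0.117 ± 0.0206 CPM per kb with E2F2 siRNA and R1881 and 0.516 ± 0.0545 with E2F2 siRNA and vehicle, against 0.0597 ± 0.00296 with control siRNA and R1881 and 0.423 ± 0.0799 with control siRNA and vehicle. These levels rest on the union of annotated exons, and transcripts that use only some of them are placed too low. That union holds 10664 bases for HSD17B4 and 1115 for HSD17B10, while their longest coding transcripts hold 2881 and 960. The order of HSD17B4 and HSD17B10 therefore depends on the length used. How well the exon capture recovered each gene was not measured.

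**Figure D2:**
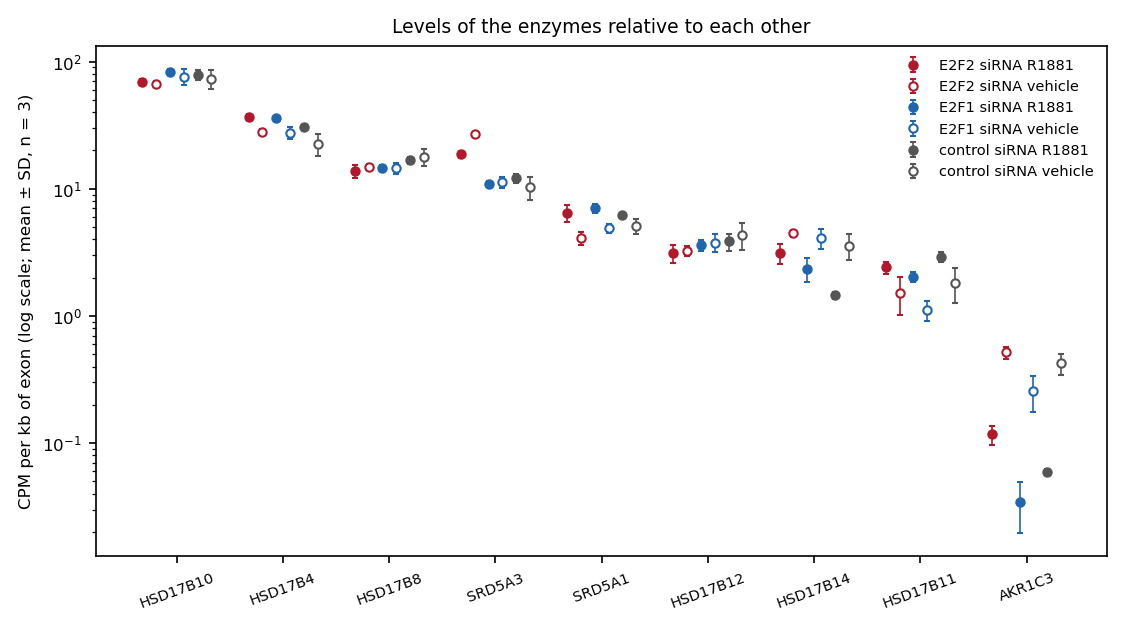
Mean level of each enzyme in CPM per kilobase of exon on a log axis, with SD over 3 libraries, in the 6 groups. HSD17B10 lies at 67.0 to 83.2 and AKR1C3 at 0.0344 to 0.516, and SRD5A3 with E2F2 siRNA lies above HSD17B8.

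SRD5A1, the 5-alpha reductase that acts on testosterone and androstenedione in many tissues, lies on chromosome 5 at 6633343 to 6674386 on the plus strand (GRCh38, GENCODE 29). Its level rose with R1881 in cells with either E2F pool. In E2F2 siRNA cells it was 53.2, 55.1 and 41.2 CPM with R1881, against 34.6, 33.0 and 27.6 CPM with vehicle in replicates 1, 2 and 3. In E2F1 siRNA cells it was 59.0, 52.8 and 50.8 CPM with R1881, against 36.9, 41.1 and 35.5 CPM with vehicle. In control siRNA cells it was 48.2, 47.8 and 47.1 CPM with R1881, against 39.1, 44.3 and 33.8 CPM with vehicle. In each pool every R1881 library lay above every vehicle library, and the gap was narrowest with control siRNA. With R1881, SRD5A1 changed by 0.65 ± 0.13 on the log2 scale in E2F2 siRNA cells (SE, adjusted p = 0.00136) and 0.52 ± 0.13 in E2F1 siRNA cells (adjusted p = 0.00802). It was 0.29 ± 0.13 in control siRNA cells and not called (adjusted p = 0.111), but was called there with the replicate number as a block (0.30, adjusted p = 0.013) and without replicate 3 (0.20, adjusted p = 0.0377). The difference in R1881 response, E2F2 siRNA minus control siRNA, was 0.36 ± 0.18 for SRD5A1 and not called, and without replicate 3 it was 0.49 with an adjusted p of 0.00496. Between E2F2 and control siRNA with vehicle, SRD5A1 had a log2 fold change of -0.30 ± 0.13 (adjusted p = 0.0975), which was called with the replicate block (-0.30, adjusted p = 0.0135) and without replicate 3 (-0.31, adjusted p = 0.00382). E2F2 over E2F1 siRNA with vehicle gave -0.25 ± 0.13 (adjusted p = 0.156), called with the block (-0.26, adjusted p = 0.0299) and without replicate 3 (-0.21, adjusted p = 0.0482). E2F1 over control siRNA with R1881 was called without replicate 3, at 0.22 (adjusted p = 0.0289).

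SRD5A3, which reduces a polyprenol-derived lipid on the way to dolichol and has also been assigned 5-alpha reductase activity, lies on chromosome 4 at 55346109 to 55373096 on the plus strand. It was the enzyme of the set with the largest change with E2F2 siRNA in vehicle. With vehicle its level was 118, 122 and 115 CPM in E2F2 siRNA cells, against 51.0, 50.8 and 34.3 CPM in control siRNA cells. With R1881 its level was 82.4, 87.6 and 77.2 CPM in E2F2 siRNA cells, against 52.1, 58.3 and 49.8 CPM in control siRNA cells. Every E2F2 siRNA library lay above every control siRNA library under both treatments. On the log2 scale SRD5A3 rose with E2F2 relative to control siRNA by 1.38 ± 0.13 with vehicle (SE, adjusted p = 1.21e-06) and 0.63 ± 0.13 with R1881 (adjusted p = 0.0016).

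With E2F1 siRNA the level of SRD5A3 was 49.6, 49.8 and 46.4 CPM with R1881 and 51.3, 53.3 and 44.0 CPM with vehicle, a range that overlaps that of control siRNA cells. E2F1 over control siRNA gave a log2 fold change of -0.14 ± 0.13 with R1881 (adjusted p = 0.643) and 0.13 ± 0.13 with vehicle (adjusted p = 0.745). E2F2 siRNA exceeded E2F1 siRNA directly, by 0.76 ± 0.13 with R1881 (adjusted p = 4.52e-04) and by 1.26 ± 0.13 with vehicle (adjusted p = 2.57e-06). R1881 lowered SRD5A3 in E2F2 siRNA cells, by -0.52 ± 0.13 (adjusted p = 0.00664), while the values were -0.03 ± 0.13 in E2F1 siRNA cells and 0.24 ± 0.13 in control siRNA cells (adjusted p = 0.2). The control siRNA value was called with the replicate block (0.25, adjusted p = 0.0366). The difference in R1881 response, E2F2 siRNA minus control siRNA, was -0.76 ± 0.18 with an unadjusted p of 0.000763 and an adjusted p of 0.0684. DESeq2 called that difference (adjusted p = 0.00876), and so did the edgeR fit without replicate 3 (-0.61, adjusted p = 6.01e-05).

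The ratio of SRD5A3 to SRD5A1, both in CPM per kb, set the pools apart most in vehicle. It was 2.70, 2.77 and 3.27 with E2F2 siRNA and R1881 and 5.94, 6.47 and 7.26 with E2F2 siRNA and vehicle. With E2F1 siRNA it was 1.47, 1.65 and 1.59 with R1881 and 2.42, 2.26 and 2.17 with vehicle. With control siRNA it was 1.89, 2.13 and 1.85 with R1881 and 2.28, 2.00 and 1.77 with vehicle. All 6 E2F2 siRNA libraries lay above all 12 others, and within the E2F2 and E2F1 pools the R1881 libraries lay below the vehicle libraries, while within the control pool the treatments overlapped. The ratio is a description of the 18 libraries and was not tested.

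**Figure D3:**
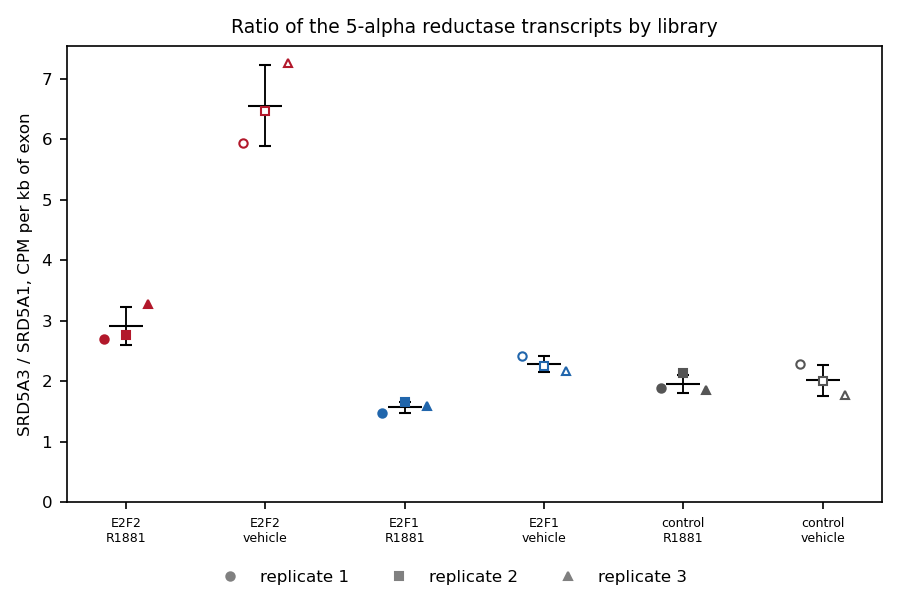
Ratio of SRD5A3 to SRD5A1 in CPM per kilobase of exon by library, with the mean and SD of each group (n = 3). The E2F2 siRNA libraries lie at 2.70 to 3.27 with R1881 and 5.94 to 7.26 with vehicle, and the E2F1 and control siRNA libraries at 1.47 to 2.42.

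The 250 bases before the RefSeq starts of SRD5A1, SRD5A3 and AKR1C3 are shown because these 3 members stand on the route to dihydrotestosterone or belong to its enzyme family and were called with R1881 in at least 1 pool. The RefSeq starts lie inside the GENCODE 29 gene spans given here, and the bases after each printed window match a GENCODE transcript. The windows are RefSeq sequence on GRCh38.p14, written 5′ to 3′ on the gene's strand, with matches to a GC box (GGGGCGGGG) or a CCAAT word on either strand in capitals. SRD5A1 is read from chr5:6633190-6633439, SRD5A3 from chr4:55345992-55346241 and AKR1C3 from chr10:5094164-5094413, all on the plus strand.
SRD5A1: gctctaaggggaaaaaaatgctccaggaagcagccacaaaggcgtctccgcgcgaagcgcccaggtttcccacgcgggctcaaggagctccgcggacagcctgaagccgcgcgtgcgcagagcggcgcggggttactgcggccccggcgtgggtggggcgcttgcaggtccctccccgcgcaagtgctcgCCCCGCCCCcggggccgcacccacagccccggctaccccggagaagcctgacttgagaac
SRD5A3: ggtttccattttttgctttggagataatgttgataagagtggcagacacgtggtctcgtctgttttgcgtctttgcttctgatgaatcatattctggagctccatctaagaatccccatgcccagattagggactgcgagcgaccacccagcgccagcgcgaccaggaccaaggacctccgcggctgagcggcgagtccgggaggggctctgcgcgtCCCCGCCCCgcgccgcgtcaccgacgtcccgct
AKR1C3: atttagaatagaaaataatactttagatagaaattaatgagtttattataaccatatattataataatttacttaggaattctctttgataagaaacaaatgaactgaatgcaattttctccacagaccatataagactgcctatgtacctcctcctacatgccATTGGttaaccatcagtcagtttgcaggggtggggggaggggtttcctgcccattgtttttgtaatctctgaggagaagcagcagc

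The SRD5A1 and SRD5A3 windows each hold 1 GC box, at position -60 and at position -33 relative to the start, a word found in 15.1% of the 35116 windows of the table. Their GC content is 70.8% and 59.6%, and that of the AKR1C3 window, with 1 CCAAT word on the minus strand at position -86, is 35.6%. AKR1C3 has another window in the table, chr10:5048531-5048780, with a GC content of 32.0% and 1 CCAAT word at position -73, which is not printed because the bases after it match no GENCODE transcript. CCAAT is found in 32.0% of all windows. No window of the set held the androgen response element, read as AGAACA and TGTTCT with any 3 bases between them, found in 0.00285% of all windows, AGAACA by itself, found in 12.4%, or any of the E2F words TTTCCCGC, TTTCGCGC, TTTGCCGC and TTTGGCGC, found in 2.79%, on either strand. The table held windows for 7 of the 9 enzymes, all but HSD17B12 and HSD17B14.

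AKR1C3, the reductase that makes testosterone from androstenedione, lies on chromosome 10 at 5035354 to 5107686 on the plus strand. It was scarce in LNCaP cells, and scarcer with R1881 in every pool. E2F2 siRNA cells had 5, 7 and 7 reads with R1881, against 26, 27 and 24 reads with vehicle. E2F1 siRNA cells had 2, 3 and 1 reads with R1881, against 11, 13 and 20 reads with vehicle. Control siRNA cells had 4, 4 and 3 reads with R1881, against 22, 25 and 35 reads with vehicle. In each pool all R1881 libraries lay below all vehicle libraries. No R1881 library reached the 10 reads of the filter, so AKR1C3 was tested only because of its vehicle libraries. The log2 fold change of AKR1C3 with R1881 was -2.12 ± 0.28 in E2F2 siRNA cells (SE, adjusted p = 2.86e-05), -2.79 ± 0.37 in E2F1 siRNA cells (adjusted p = 3.97e-05) and -2.78 ± 0.30 in control siRNA cells (adjusted p = 4.73e-06). These SEs are too small, since each gives a narrower interval than the counting error alone, which is given next.

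Set against counting error alone, the R1881 level of AKR1C3 was 22.8% of the vehicle level in E2F2 siRNA cells, with an exact 95% interval of 13.0% to 38.0% on 19 and 77 reads. It was 13.8% in E2F1 siRNA cells (4.79% to 32.4%, 6 and 44 reads) and 14.1% in control siRNA cells (6.75% to 26.5%, 11 and 82 reads). These intervals overlap between pools, and no difference in the R1881 response of AKR1C3 was called (adjusted p = 0.812 for E2F2 siRNA minus control siRNA). E2F2 siRNA exceeded E2F1 siRNA, by 1.68 ± 0.52 on the log2 scale with R1881 (adjusted p = 0.0271) and by 1.00 ± 0.24 with vehicle (adjusted p = 0.00495). By counting error alone, E2F2 siRNA had 333% of the E2F1 siRNA level with R1881 (exact 95% interval 128% to 1018%). With vehicle it had 201% (137% to 298%). These SEs also give narrower intervals than counting error alone. The R1881 call of that pair rests on 19 and 6 reads and was lost with DESeq2 (adjusted p = 0.0565), without the filter on low counts (adjusted p = 0.0613), without replicate 3 (adjusted p = 0.123) and without any of 4 single libraries (adjusted p = 0.0637 to 0.116). Against control siRNA neither pool was called, at 0.94 ± 0.49 for E2F2 siRNA with R1881 (adjusted p = 0.161) and -0.72 ± 0.24 for E2F1 siRNA with vehicle (adjusted p = 0.11). Without replicate 3 of the E2F1 siRNA vehicle group the E2F1 siRNA value was -0.98 with an adjusted p of 0.0492.

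AKR1C3 has close relatives in the same gene cluster. Of the 50-base words in its longest coding transcript, 12.1% also occur in transcripts of AKR1C1, AKR1C2 or AKR1C4. The same share was 28.6% for AKR1C1 and 52.2% for AKR1C2, so reads could be split between the copies. With the reads of AKR1C1, AKR1C2 and AKR1C3 added together, R1881 lowered the sum by -1.21 in E2F2 siRNA cells (adjusted p = 0.002), -1.41 in E2F1 siRNA cells (adjusted p = 0.00156) and -2.02 in control siRNA cells (adjusted p = 3.48e-05). The sum was higher with E2F2 than with control siRNA under R1881, by 0.97 (adjusted p = 0.0195), where AKR1C3 alone was not called.

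**Figure D4:**
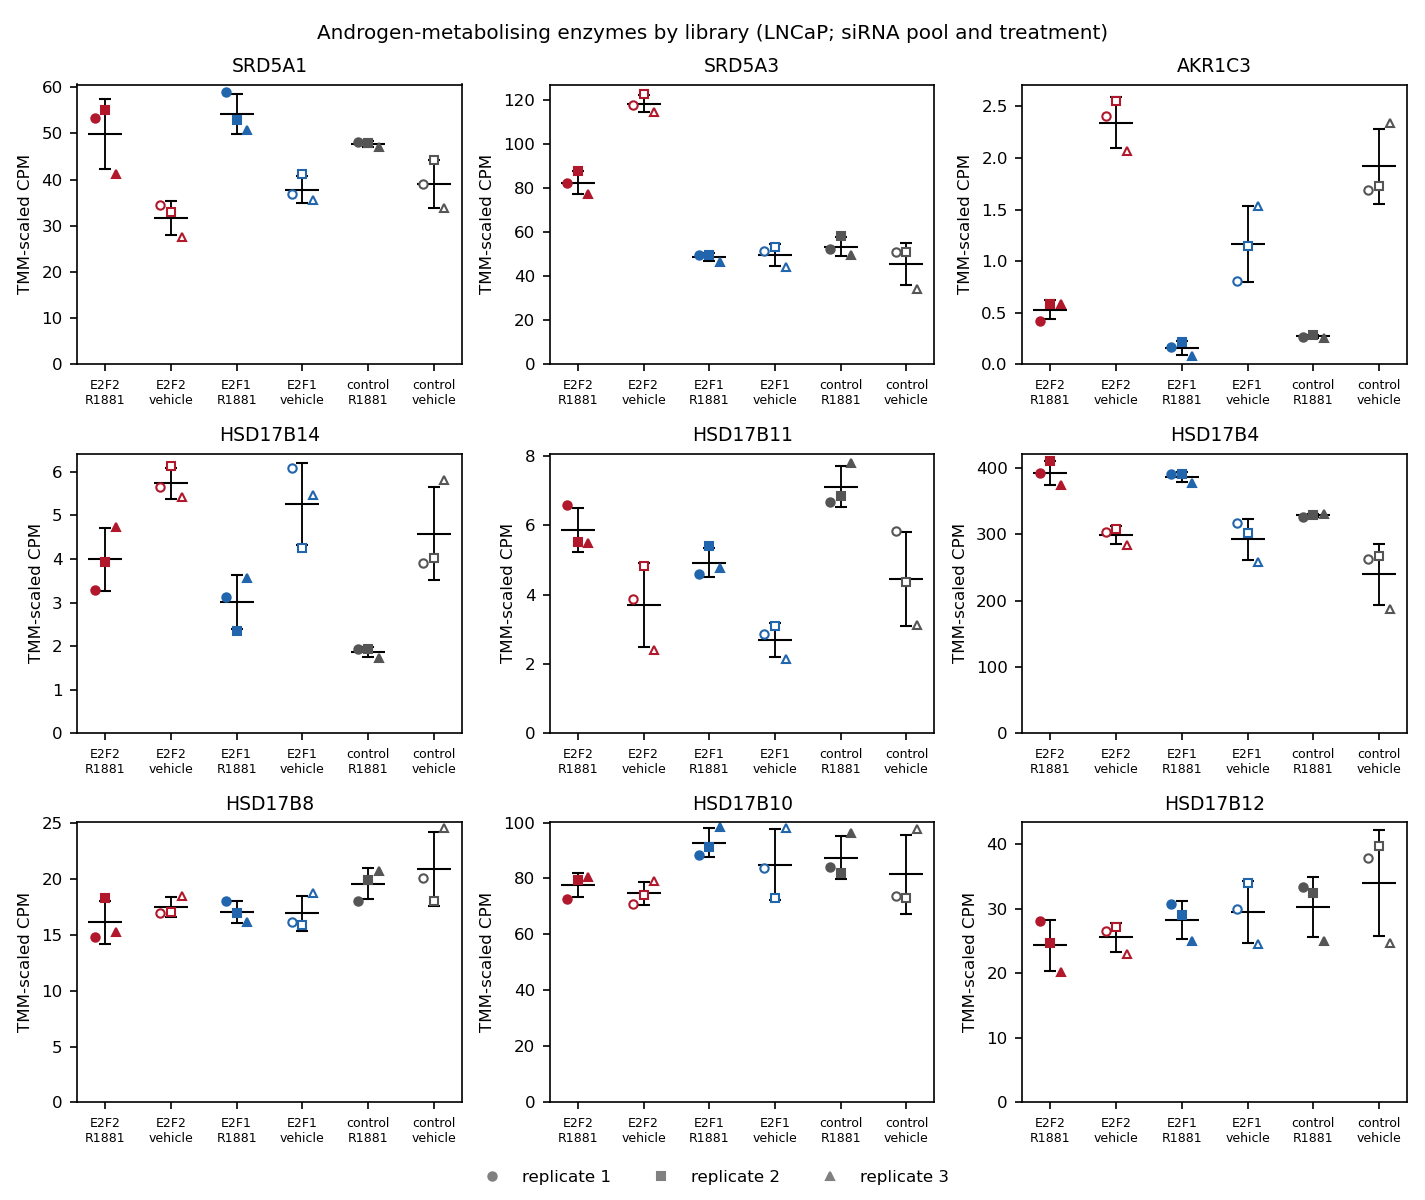
TMM-scaled CPM of each enzyme in every library, by siRNA pool and treatment, with the group mean and SD (n = 3). Filled symbols are R1881 and open symbols vehicle, and shapes mark the replicate number. For AKR1C3 the R1881 libraries lie at 0.0851 to 0.586 CPM and the vehicle libraries at 0.806 to 2.55 CPM, and for SRD5A3 the E2F2 siRNA libraries lie above all others.

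HSD17B14, an NAD-dependent enzyme that oxidises oestradiol and androstenediol, lies on chromosome 19 at 48813017 to 48836678 on the minus strand. R1881 lowered it in cells with E2F1 and control siRNA, and E2F2 siRNA raised it relative to control siRNA in R1881. In E2F2 siRNA cells it was 3.30, 3.93 and 4.74 CPM with R1881, against 5.64, 6.13 and 5.43 CPM with vehicle. In E2F1 siRNA cells it was 3.12, 2.34 and 3.57 CPM with R1881, against 6.08, 4.24 and 5.46 CPM with vehicle. In control siRNA cells it was 1.94, 1.93 and 1.73 CPM with R1881, against 3.91, 4.01 and 5.80 CPM with vehicle. R1881 libraries lay below vehicle libraries in each pool, and the control siRNA libraries with R1881 were the lowest of all 18. The log2 fold change with R1881 was -0.52 ± 0.20 in E2F2 siRNA cells (SE, adjusted p = 0.075), -0.82 ± 0.20 in E2F1 siRNA cells (adjusted p = 0.00883) and -1.29 ± 0.22 in control siRNA cells (adjusted p = 2.99e-04). The E2F2 siRNA value was called with the replicate block (-0.53, adjusted p = 0.0372) and without replicate 3 (-0.70, adjusted p = 0.013), and the E2F1 siRNA value was not called without replicate 2 of its R1881 group (-0.66, adjusted p = 0.0578).

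Between pools in R1881, HSD17B14 was higher with E2F2 than with control siRNA by 1.09 ± 0.22 (adjusted p = 0.00142). For E2F1 over control siRNA the value was 0.68 ± 0.23 (adjusted p = 0.0777), which was called with the replicate block (0.66, adjusted p = 0.0473). In vehicle the values were 0.32 ± 0.20 for E2F2 siRNA and 0.20 ± 0.19 for E2F1 siRNA, neither called, and the E2F2 value without replicate 3 was 0.57 (adjusted p = 0.0343). The difference in R1881 response, E2F2 siRNA minus control siRNA, was 0.77 ± 0.29 for HSD17B14 and not called.

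HSD17B11, a lipid droplet enzyme that oxidises androstanediol, lies on chromosome 4 at 87336610 to 87391386 on the minus strand. Its level was 6.59, 5.52 and 5.49 CPM with R1881 in E2F2 siRNA cells, against 3.88, 4.81 and 2.41 CPM with vehicle. It was 4.60, 5.40 and 4.77 CPM with R1881 in E2F1 siRNA cells, against 2.86, 3.10 and 2.15 CPM with vehicle. It was 6.68, 6.86 and 7.79 CPM with R1881 in control siRNA cells, against 5.83, 4.36 and 3.14 CPM with vehicle. R1881 libraries lay above vehicle libraries in each pool, with the lowest vehicle library in replicate 3 each time. The log2 fold change with R1881 was 0.67 ± 0.24 in E2F2 siRNA cells (SE, adjusted p = 0.0559), 0.87 ± 0.25 in E2F1 siRNA cells (adjusted p = 0.0189) and 0.68 ± 0.23 in control siRNA cells (adjusted p = 0.0342). The E2F2 siRNA value was called with the replicate block (0.68, adjusted p = 0.0204) and with DESeq2 (adjusted p = 0.0381). The control siRNA call was lost in a fit to the groups compared only (adjusted p = 0.117), without replicate 3 (0.41, adjusted p = 0.0687) and without any of 5 of the 6 single libraries, at adjusted p of 0.0614 to 0.11.

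The E2F1 siRNA call of HSD17B11 was lost without replicate 2 of the R1881 group (adjusted p = 0.0739) or replicate 3 of the vehicle group (adjusted p = 0.0823). Between pools, HSD17B11 was lower in all 3 E2F1 siRNA libraries than in all 3 control siRNA libraries under both treatments. E2F1 over control siRNA gave a log2 fold change of -0.52 ± 0.23 with R1881 (adjusted p = 0.187) and -0.71 ± 0.25 with vehicle (adjusted p = 0.128). The vehicle value was called with the replicate block (-0.71, adjusted p = 0.0493) and without replicate 3 (-0.77, adjusted p = 0.0141).

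HSD17B4, the bifunctional enzyme of peroxisomal beta-oxidation that also oxidises oestradiol, lies on chromosome 5 at 119452443 to 119637199 on the plus strand. It rose with R1881 in all 3 pools. In E2F2 siRNA cells it was 392, 411 and 374 CPM with R1881, against 304, 309 and 283 CPM with vehicle. In E2F1 siRNA cells it was 391, 390 and 378 CPM with R1881, against 318, 302 and 258 CPM with vehicle. In control siRNA cells it was 326, 330 and 330 CPM with R1881, against 264, 268 and 187 CPM with vehicle. No R1881 library of a pool fell within the range of that pool's vehicle libraries. The log2 fold change of HSD17B4 with R1881 was 0.39 ± 0.11 in E2F2 siRNA cells (SE, adjusted p = 0.0166), 0.40 ± 0.11 in E2F1 siRNA cells (adjusted p = 0.0165) and 0.46 ± 0.11 in control siRNA cells (adjusted p = 0.00584). Without replicate 2 of the R1881 group or replicate 3 of the vehicle group, the E2F2 siRNA call of HSD17B4 was lost (adjusted p = 0.0663 and 0.0622). The E2F1 siRNA call was lost without replicate 1 or 2 of the R1881 group or replicate 3 of the vehicle group (adjusted p = 0.0543, 0.0523 and 0.0794), and the control siRNA call in a fit to the groups compared only (adjusted p = 0.0964).

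HSD17B4 was higher with E2F2 than with control siRNA in vehicle, by 0.32 ± 0.11 (adjusted p = 0.0447). That call was lost without the filter on low counts (0.26, adjusted p = 0.15), in a fit to the groups compared only (adjusted p = 0.271) and without any of the 3 E2F2 siRNA vehicle libraries. Without replicate 3 of the control siRNA vehicle group, which had 187 CPM, it was 0.16 with an adjusted p of 0.144. For E2F1 over control siRNA in vehicle the value was 0.29 ± 0.11 (adjusted p = 0.187), called with the replicate block (0.29, adjusted p = 0.0286) and without replicate 3 (0.22, adjusted p = 0.00127). With R1881 the values were 0.25 ± 0.11 for E2F2 siRNA (adjusted p = 0.0984) and 0.23 ± 0.11 for E2F1 siRNA (adjusted p = 0.249), and without replicate 3 both were called, at 0.29 (adjusted p = 6.92e-06) and 0.25 (adjusted p = 1.27e-04).

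HSD17B8, HSD17B10 and HSD17B12 were called in none of the 11 comparisons. HSD17B8, a subunit of the mitochondrial fatty acid synthesis reductase on chromosome 6 at 33204642 to 33206831, had log2 fold changes with R1881 of -0.12 in E2F2 siRNA cells (95% interval -0.39 to 0.15), 0.01 in E2F1 siRNA cells (-0.26 to 0.28) and -0.10 in control siRNA cells (-0.36 to 0.17). HSD17B10, a mitochondrial enzyme of isoleucine breakdown and a subunit of mitochondrial RNase P on chromosome X at 53431258 to 53434373, had 0.05 (-0.21 to 0.32), 0.13 (-0.13 to 0.39) and 0.10 (-0.16 to 0.36) in the E2F2, E2F1 and control pools. HSD17B12, the ketoacyl reductase of very-long-chain fatty acid elongation on chromosome 11 at 43680558 to 43856617, had -0.07 (-0.47 to 0.32), -0.06 (-0.45 to 0.33) and -0.17 (-0.56 to 0.22) in the same order.

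Between pools, HSD17B8 had log2 fold changes relative to control siRNA of -0.28 ± 0.13 for E2F2 siRNA and -0.20 ± 0.13 for E2F1 siRNA with R1881 (SE, adjusted p = 0.109 and 0.426). With vehicle they were -0.26 ± 0.13 for E2F2 siRNA and -0.30 ± 0.12 for E2F1 siRNA (adjusted p = 0.145 and 0.223). HSD17B12 with vehicle was 26.5, 27.2 and 23.0 CPM in E2F2 siRNA cells, against 37.8, 39.6 and 24.6 CPM in control siRNA cells. The E2F2 siRNA values lay below those of control replicates 1 and 2, and the replicate 3 control fell within their range. For HSD17B12, E2F2 over control siRNA with vehicle gave a log2 fold change of -0.41 ± 0.18 (SE, adjusted p = 0.112). It was called with the replicate block (-0.39, adjusted p = 0.00321) and without replicate 3 (-0.53, adjusted p = 1.60e-05). Other values of HSD17B12 were called without replicate 3 as well: R1881 in control siRNA cells (-0.24, adjusted p = 0.0197), E2F2 over control siRNA with R1881 (-0.31, adjusted p = 0.00442), E2F1 over control siRNA with vehicle (-0.28, adjusted p = 0.0205) and E2F2 over E2F1 siRNA with vehicle (-0.25, adjusted p = 0.0267). HSD17B10 was called without replicate 3 for R1881 in E2F1 siRNA cells (0.19, adjusted p = 0.0287) and in control siRNA cells (0.18, adjusted p = 0.0368), and for E2F2 over E2F1 siRNA with R1881 (-0.24, adjusted p = 0.00665).

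Between siRNA pools, E2F2 siRNA raised 2 of 9 enzymes relative to control siRNA under R1881, SRD5A3 and HSD17B14, where 30.3% of all tested genes were called, 15.9% upward and 14.4% downward. With vehicle it raised 2 of 9, SRD5A3 and HSD17B4, where 27.3% of all genes were called, 14.2% upward and 13.1% downward. E2F1 siRNA against control siRNA gave 0 of 9 in the main edgeR fit under either treatment, where 9.34% of all genes were called with R1881 and 5.28% with vehicle. Some other edgeR fits called more, as given in the closing section on the processing. At an unadjusted p under 0.05, 2 of 9 passed for E2F1 siRNA with R1881 and 4 of 9 with vehicle, against 20.9% and 16.1% of all genes. DESeq2 called 0 of 9 in both, against 11.2% of all genes with R1881 and 6.47% with vehicle. E2F2 against E2F1 siRNA gave 2 of 9, SRD5A3 and AKR1C3, with each treatment. Of all genes, 24% were called in that comparison with R1881, 13.1% upward and 11% downward, and 30.6% with vehicle, 16.1% upward and 14.4% downward. The difference in R1881 response from control siRNA gave 0 of 9 in the main edgeR fit for either E2F pool, where 0.889% of all genes were called for E2F2 siRNA and 0.685% for E2F1 siRNA. For E2F2 siRNA some other edgeR fits called more, as given in the closing section. At an unadjusted p under 0.05, 2 of 9 passed for E2F2 siRNA and 0 of 9 for E2F1 siRNA, against 10.4% and 10.2% of all genes. DESeq2 called 1 of 9 for E2F2 siRNA and 0 of 9 for E2F1 siRNA, against 2.09% and 2.3% of all genes. The comparisons of the E2F pools with control siRNA under one treatment share their control libraries.

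**Figure D5:**
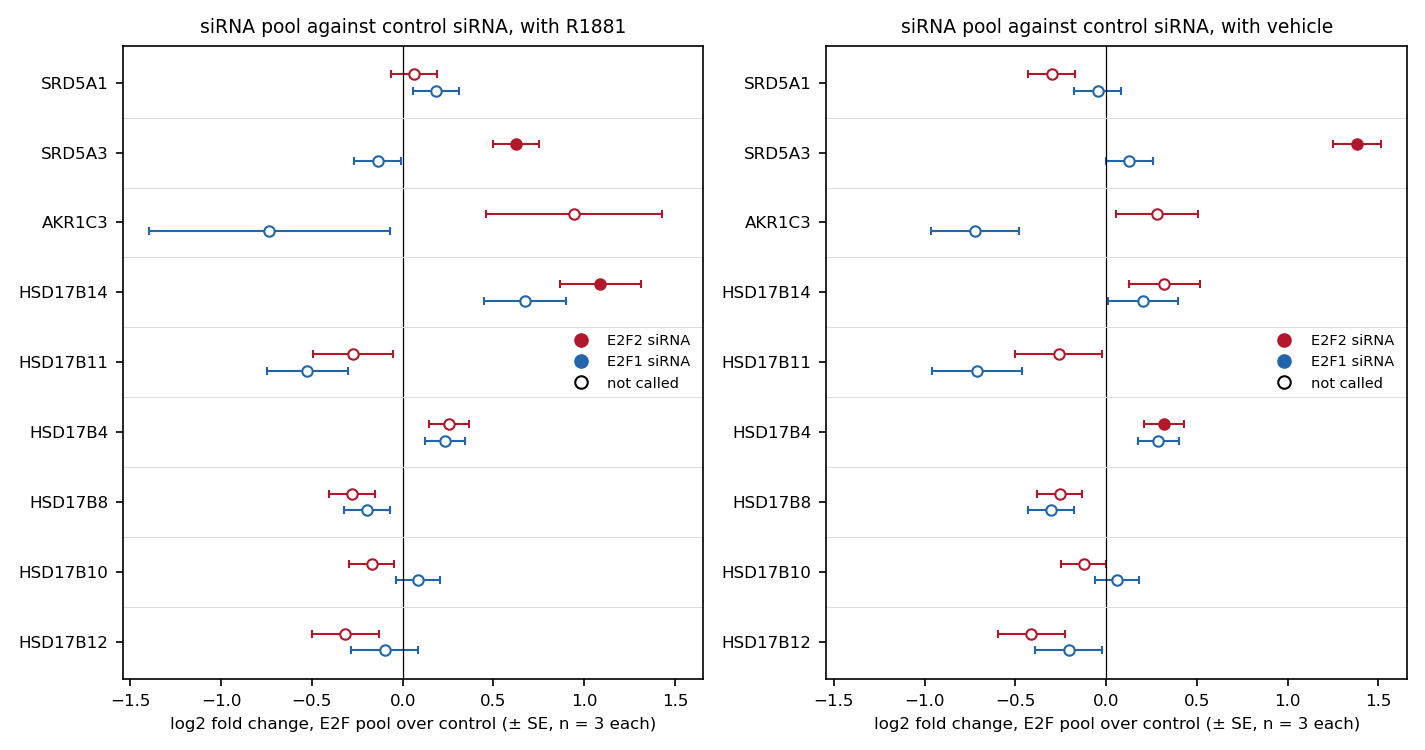
Log2 fold change of each enzyme, E2F2 and E2F1 siRNA over control siRNA, with R1881 (left) and with vehicle (right). Points are edgeR estimates with SE from 3 libraries a group, filled where called. SRD5A3 with E2F2 siRNA lies at 0.63 with R1881 and 1.38 with vehicle, and no E2F1 siRNA point is filled.

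A list of 13 further genes held 17-beta-hydroxysteroid dehydrogenases, a 5-alpha reductase and other dehydrogenases or reductases such as HSDL1, HSDL2 and RDH11. Of these 13 genes, 8 were tested. R1881 raised 2 of the 8 in E2F2 siRNA cells, 2 in E2F1 siRNA cells and 1 in control siRNA cells, and lowered 0 in each. Of all tested genes, 11.8%, 10.1% and 13.8% were called upward in the same order, and 11%, 9.75% and 13.2% downward. The median log2 fold change of the 8 was 0.13 in control siRNA cells beside 0.0018 over all genes. HSD17B2, which oxidises testosterone to androstenedione, had 37, 15 and 18 reads over the R1881 libraries of the E2F2, E2F1 and control pools and 0 reads in all 9 vehicle libraries. Against a floor of 3 reads over a vehicle group, the observed R1881 level was 11.4-, 5.04- and 6.29-fold higher in those pools. These values leave out the counting error of the R1881 reads and are not lower bounds. Single R1881 libraries held 5 to 20, 4 to 6 and 2 to 12 reads in the same order. HSD17B2 passed the filter on reads through R1881 libraries only. RDH11, a retinol and short-chain aldehyde reductase, rose with R1881 by 0.48 ± 0.12 in E2F2 siRNA cells (adjusted p = 0.00646) and by 0.40 ± 0.12 in E2F1 siRNA cells (adjusted p = 0.0215). HSD17B13, a close relative of HSD17B11, had 0 to 2 reads in any library.

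Of 7 other aldo-keto reductases of steroids, 3 were tested. In control siRNA cells R1881 lowered 2 of the 3, AKR1C1 by -2.22 ± 0.43 (adjusted p = 0.00113) and AKR1C2, which inactivates dihydrotestosterone, by -1.26 ± 0.42 (adjusted p = 0.0364). There, 13.2% of all genes were called downward. AKR1C1 had 17 reads over the R1881 libraries and 33 over the vehicle libraries of the E2F2 pool, 7 and 23 in the E2F1 pool, and 9 and 45 in the control pool. The AKR1C1 fall was called in E2F1 siRNA cells as well (-1.66 ± 0.51, adjusted p = 0.0293), and the reads are open to the same splitting as those of AKR1C3. No R1881 library of AKR1C1 reached the 10 reads of the filter, so AKR1C1 was tested only because of its vehicle libraries. In E2F2 siRNA cells R1881 lowered 0 of the 3 and raised 1, AKR1A1, at 173 CPM with R1881 against 127 CPM with vehicle. There, 11.8% of all genes were called upward and 11% downward.

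Of 19 genes of upstream steroidogenesis and its electron donors, 10 were tested, and R1881 raised 2 and lowered 1 in control siRNA cells, with a median of -0.08. There, 13.8% of all genes were called upward and 13.2% downward. CYP11A1, which cleaves the cholesterol side chain, had 145 reads over the R1881 libraries and 3 over the vehicle libraries of the E2F2 pool, 126 and 8 in the E2F1 pool, and 104 and 4 in the control pool. CYP11A1 passed the filter on reads through R1881 libraries only, with 0 to 3 reads in any vehicle library. Its electron donor ferredoxin, FDX1, fell with R1881 in all pools, by -0.70 ± 0.12 in E2F2, -1.14 ± 0.12 in E2F1 and -0.80 ± 0.12 in control siRNA cells (adjusted p = 3.58e-04, 3.09e-06 and 9.63e-05). CYB5A, the cytochrome b5 that assists androgen formation by CYP17A1, rose in all pools, by 0.32 ± 0.10, 0.47 ± 0.10 and 0.41 ± 0.10 in the same order. FDXR, the ferredoxin reductase, fell in E2F2 (-0.81 ± 0.15, adjusted p = 9.69e-04) and E2F1 siRNA cells (-0.63 ± 0.15, adjusted p = 0.00773), and its value in control siRNA cells was -0.28 ± 0.15 (adjusted p = 0.197).

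Of 14 genes of steroid sulfation, desulfation and uptake, 8 were tested. E2F2 siRNA raised 3 and lowered 1 of them relative to control siRNA with R1881, and raised 2 and lowered 2 with vehicle. Of all genes, 15.9% were called upward and 14.4% downward with R1881, and 14.2% and 13.1% with vehicle. The median log2 fold change of the 8 was 0.24 with R1881 and 0.09 with vehicle, beside 0.03 and 0.02 over all genes. STS, the sulfatase that frees steroids from their sulfates, averaged 46.8 ± 5.25 CPM with E2F2 siRNA and R1881, against 28.2 ± 1.22 CPM with control siRNA and R1881 (SD, n = 3). With vehicle STS averaged 39.4 ± 4.34 CPM with E2F2 siRNA, against 25.7 ± 1.05 CPM with control siRNA. Its log2 fold change, E2F2 over control siRNA, was 0.73 ± 0.11 with R1881 (adjusted p = 1.55e-04) and 0.62 ± 0.11 with vehicle (adjusted p = 8.11e-04). E2F1 siRNA raised STS with R1881 by 0.39 ± 0.11 (adjusted p = 0.0409). SULT2B1, a hydroxysteroid sulfotransferase, was higher with E2F2 siRNA by 0.88 ± 0.19 with R1881 and by 0.57 ± 0.19 with vehicle.

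Of 7 genes of androgen glucuronidation, 6 were tested, and R1881 raised 2 and lowered 3 in control siRNA cells. There, 13.8% of all genes were called upward and 13.2% downward. UGT2B15, which conjugates dihydrotestosterone, averaged 19.7 ± 1.07 CPM with R1881 and 126 ± 16.0 CPM with vehicle in E2F2 siRNA cells, and 7.59 ± 2.11 CPM with R1881 and 55.7 ± 16.2 CPM with vehicle in control siRNA cells. With E2F2 siRNA and vehicle 4 of the 6 were higher than with control siRNA, and with R1881 3 were higher and 1 was lower. Of all genes, 14.2% were called upward and 13.1% downward with vehicle, and 15.9% and 14.4% with R1881. The medians of the 6 were 0.87 with vehicle and 0.78 with R1881. The UGT2B genes are near-identical copies, and their separate values are uncertain.

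The genes around the non-steroid work of the enzymes were counted in the same comparisons. With R1881, 11.8% of all genes were called upward and 11% downward in E2F2 siRNA cells. These shares were 10.1% and 9.75% in E2F1 and 13.8% and 13.2% in control siRNA cells. For E2F2 over control siRNA they were 15.9% and 14.4% with R1881 and 14.2% and 13.1% with vehicle. Of 19 genes of peroxisomal beta-oxidation, the process of HSD17B4, 18 were tested. R1881 raised 4 and lowered 1 in E2F2 siRNA cells, raised 5 and lowered 3 in E2F1 siRNA cells, and raised 2 and lowered 4 in control siRNA cells, where the median log2 fold change was -0.14. Relative to control siRNA, E2F2 siRNA raised 10 and lowered 1 with R1881 (median 0.38, beside 0.03 over all genes) and raised 2 and lowered 3 with vehicle (median 0.03, beside 0.02 over all genes). ACAA1, the peroxisomal thiolase, rose with E2F2 siRNA and R1881 by 0.65 ± 0.14 and HACL1, of alpha-oxidation, by 0.45 ± 0.10 (adjusted p = 0.00216 and 0.0022). Of 24 genes of dolichol and lipid-linked oligosaccharide synthesis, the process of SRD5A3, 23 were tested. E2F2 siRNA raised 1, ALG13, and lowered 1, DOLPP1, with vehicle, the comparison in which SRD5A3 rose by 1.38, and the list's median was -0.08. R1881 raised 3 of the 23 in control siRNA cells and lowered 0, beside 13.8% and 13.2% of all genes. The list's median there was 0.26, with ALG2, a mannosyltransferase, at 0.50 ± 0.08 (adjusted p = 3.58e-04).

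Of 12 genes of very-long-chain fatty acid elongation, the process of HSD17B12, 9 were tested. R1881 raised 5 in each pool and lowered 0 in E2F2, 0 in E2F1 and 1 in control siRNA cells, with medians of 0.65, 0.36 and 0.55. The shares of all genes in the same order were 11.8%, 10.1% and 13.8% upward and 11%, 9.75% and 13.2% downward. ELOVL5, an elongase of polyunsaturated fatty acids, rose with R1881 by 2.18 ± 0.22 in E2F2, 1.86 ± 0.22 in E2F1 and 1.71 ± 0.22 in control siRNA cells (adjusted p = 2.40e-06, 1.22e-05 and 2.64e-05), where HSD17B12 was not called. Of 11 genes of mitochondrial RNase P and isoleucine breakdown, the processes of HSD17B10, 10 were tested. Beside 15.9% and 14.2% of all genes called upward, E2F2 siRNA raised 2 with R1881 and 3 with vehicle relative to control siRNA. It lowered 0, beside 14.4% and 13.1% of all genes, with medians of 0.05 and 0.13. It raised ACADSB, a dehydrogenase of isoleucine breakdown, by 1.07 ± 0.12 with R1881 and by 1.65 ± 0.12 with vehicle (adjusted p = 6.00e-06 and 9.58e-08). ACAT1, the thiolase of the same route, rose by 0.55 ± 0.12 with R1881 and by 0.54 ± 0.12 with vehicle. Of 6 genes of mitochondrial fatty acid synthesis, the process of HSD17B8, 5 were tested, and R1881 raised 1 and lowered 0 in control siRNA cells, with a median of 0.27, the 1 being MCAT (0.44 ± 0.11, adjusted p = 0.00865). Of 18 lipid droplet genes, the compartment of HSD17B11, 13 were tested, and R1881 raised 3 and lowered 1 in control siRNA cells, with a median of 0.21, HILPDA at 0.85 ± 0.10 (adjusted p = 1.11e-05) and LSS, lanosterol synthase, at 0.77 ± 0.17 (adjusted p = 0.00281). The control siRNA counts of these last lists stand beside 13.8% of all genes called upward and 13.2% downward.

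The genes whose log2 levels followed an enzyme most closely over the 18 libraries were named for the 3 enzymes with the smallest p for R1881 in control siRNA cells. For AKR1C3 these were MAST4, OPRK1 and MATN2, with Pearson's r of 0.985, 0.979 and 0.978. For HSD17B14 they were ATP9A, TTC9 and FAM168A, with r of 0.954, 0.949 and 0.932. For HSD17B4 they were DNAJC3, GTF3C6 and ARF4, with r of 0.975, 0.971 and 0.971. The 18 points share 6 group means, and the values are a description.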

How the data were processed

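RNA of LNCaP cells was sequenced after exon capture (TruSeq RNA Exome), per the labels. The deposited values are counts per gene that the authors made with featureCounts of Subread 1.6.4, per the submitters' processing notes, which also name CASAVA 1.8.2, TopHat2 2.0.13, Picard 1.97 and GRCh38. Settings for strand, annotation release and multiply mapped reads are not given in the sources used here. Reads of close copies could therefore be split, and reads of antisense or overlapping genes counted together; SRD5A3-AS1 and FAM170A, which overlap SRD5A3 and HSD17B4, had 0 to 6 counts a library.

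Counts were filtered with edgeR 4.0.16 (minimum count 10, minimum total 15; R 4.3.3), scaled by TMM and fitted with 6 group means on all 18 libraries. The 11 comparisons were tested by the quasi-likelihood F test with Benjamini-Hochberg adjustment over 15185 genes, and calls are at an adjusted p under 0.05. The SE is the log2 fold change divided by the t value of its p. For genes with few reads, such as AKR1C3, this SE can fall below counting error alone. For AKR1C3 in the differences of response that quotient is not usable and no SE is given. The common biological coefficient of variation was 0.167. Intervals on AKR1C3 reads are exact (Clopper-Pearson) and cover counting error only, since reads without molecular identifiers are not independent molecules. Positions and exon lengths are from GENCODE 29. The script was run on simulated data for R1881 against vehicle with control siRNA. The simulation held no replicate effect, so it does not test the fit to these libraries.

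The enzymes and gene lists were chosen with earlier results of these data known. All 9 enzymes are named; of each other list, up to 4 called genes with the smallest p in a comparison may be named; and for the 3 enzymes with the smallest p for R1881 in control siRNA cells, the 3 genes with the highest correlation of log2 CPM (prior count 2). Beyond this rule, gene values are set side by side across pools. The replicate number comes from the labels, which do not say what a number shares. Deviations from group means correlated above 0.1 in every same-numbered pair in 8 of the 11 comparisons (lowest 0.128), so there the fit with the replicate number as a block is given beside a result whose call it changes. Alternatives were DESeq2 1.42.0, RLE scaling, no filter, a filter keeping genes at 1 CPM or more in 3 libraries, that block, a fit to the groups compared only, leaving out replicate 3 and leaving out each library. Adding the reads of AKR1C1, AKR1C2 and AKR1C3 was chosen after seeing the data.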

Additional observations from a re-analysis of the deposited data

How the results depend on the processing

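Single-enzyme values under an alternative were counted only where that enzyme was called for that comparison in at least 1 run. Of these, 563 kept their direction and their side of the threshold, 49 kept direction and passed it, 29 kept direction and lost it, and none reversed. HSD17B8 was called in no run and is not among them. RLE scaling and the CPM filter moved no count of called enzymes by over 1.5 times. In a fit to the groups compared only, R1881 with control siRNA called 2 enzymes in place of 4, E2F1 against control siRNA with R1881 called 2 in place of 0, and E2F2 against control siRNA with vehicle called 1 in place of 2. The shares of all genes called in these 3 were 12.9% in place of 27%, 15.2% in place of 9.34% and 12.5% in place of 27.3%. Without the filter on low counts, E2F2 siRNA called 1 in place of 2 against control siRNA with vehicle and 1 in place of 2 against E2F1 siRNA with R1881, where DESeq2 also called 1. Of all genes, 12.2% and 10.1% were called without the filter in place of 27.3% and 24%, and DESeq2 called 25.1% in that against E2F1 siRNA. DESeq2 called 1 in place of 0 for the difference in R1881 response, E2F2 siRNA minus control siRNA, and 2.09% of all genes in place of 0.889%.

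With the replicate block, E2F1 against control siRNA called 1 enzyme with R1881 and 2 with vehicle, in place of 0 each, and E2F2 against control siRNA with vehicle called 4 in place of 2. The block moved the shares of all genes in these to 19.9%, 12.7% and 45.3%, in place of 9.34%, 5.28% and 27.3%. The same-numbered libraries did not all correlate above 0.1 for E2F2 against control siRNA with R1881 (lowest r 0.0819), for E2F2 against E2F1 siRNA with R1881 (0.0911) and for the E2F2 difference in response (0.0819). In these the block called 4 in place of 2 (HSD17B4 at 0.25, adjusted p = 0.0205, and HSD17B12 at -0.31, adjusted p = 0.0131, were added), 3 in place of 2 (HSD17B10 at -0.26, adjusted p = 0.0185, was added) and 1 in place of 0 (SRD5A3 at -0.77, adjusted p = 0.00241), beside 45.6%, 38.5% and 4.33% of all genes in place of 30.3%, 24% and 0.889%. Best correlated with a library of their own number were 3 of 6, 5 of 6 and 9 of 12 libraries, a hint from the data and not the design. The block changed no other call of an enzyme beyond those given with the results.

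Leaving out libraries, one at a time or all of replicate 3, gave 3 to 5 called enzymes for R1881 with E2F2 siRNA, 2 to 6 with E2F1 siRNA and 3 to 6 with control siRNA. The ranges for E2F2 against control siRNA were 2 to 4 with R1881 and 1 to 5 with vehicle, and for E2F1 against control siRNA 0 to 2 with R1881 and 0 to 3 with vehicle. They were 1 to 2 with R1881 and 2 to 4 with vehicle for E2F2 against E2F1 siRNA, 0 to 2 for the E2F2 difference in response and 0 to 0 for the E2F1 difference. The shares of all genes moved as well. For R1881 they were 17.5% to 45.5% with E2F2, 15% to 38.3% with E2F1 and 20.5% to 47.3% with control siRNA. For E2F2 against control siRNA they were 23.4% to 51.4% with R1881 and 19.1% to 45.7% with vehicle. For E2F1 against control siRNA they were 5.62% to 29.5% and 2.87% to 18.8%. E2F2 against E2F1 siRNA gave 17.1% to 44.7% with R1881 and 22.7% to 50.4% with vehicle. The differences in response gave 0.342% to 11.6% for E2F2 and 0.187% to 12.1% for E2F1. The highest counts of the pools against control came without replicate 3, and the cause was not tested. SRD5A3 with E2F2 siRNA and vehicle and AKR1C3 with R1881 in each pool kept their calls under every alternative run. AKR1C3 is limited by depth, at 1 to 35 reads a library.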
